A study of Mus musculus with 8 samples.

Results

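The methylation of CG sites in liver was described for 10 genes of antigen presentation, of 37310 annotated genes, that lie in or beside the H2 complex on mouse chromosome 17. They are the class I heavy chains H2-K1 and H2-D1, the class II chains H2-Ab1, H2-Aa and H2-Eb1, the peptide transport and loading genes Tap1, Tap2 and Tapbp, and the immunoproteasome subunits Psmb8 and Psmb9. The sites counted are the CGs, each strand on its own, that lie in the gene or within 5 kb of it in the mm9 assembly. These windows held 502 of the 1469643 CGs with a read in any mouse, and 477 of them reached 10 reads in at least 1 mouse. Only 54 had at least 10 reads in all 8 mice, of 176951 such CGs in the whole series. The windows of H2-Ab1 and H2-Aa overlap, as do those of Psmb9, Tap1, Psmb8 and Tap2, so a CG can count for several genes.

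The livers came from 4 groups of mice aged 16 weeks and fasted for 16 h, with 1 female and 1 male in each. B6 is the inbred strain C57BL/6J, DBA is the inbred strain DBA/2J, BXD is the F1 cross of a B6 mother and a DBA father, and DXB is the reciprocal cross. A B6 mouse therefore has 2 B6 copies of chromosome 17, an F1 mouse 1 and a DBA mouse 0. Liver is a mix of hepatocytes and other cells, no cell type was sorted, and a change in the share of a cell type cannot be told apart from a change within it.

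Class I molecules, made of a heavy chain and beta-2 microglobulin, show peptides from inside the cell to cytotoxic T cells and are made by nearly all cells. The immunoproteasome subunits Psmb8 and Psmb9 cut proteins into such peptides, Tap1 and Tap2 form the transporter that carries them into the endoplasmic reticulum, and Tapbp (tapasin) holds an empty class I molecule at the transporter until it is loaded. Class II molecules, pairs of an alpha and a beta chain such as those of H2-Aa and H2-Ab1, show peptides taken up from outside to helper T cells and are made mainly by specialized immune cells. B6 carries the H2b haplotype and DBA the H2d haplotype, and the class I and class II chains are among the most variable genes between haplotypes. Class I genes also have many close relatives in the complex, and whether reads of H2-K1 and H2-D1 were shared with them was not tested.

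Reduced representation bisulfite sequencing reads only ends of fragments cut by MspI at CCGG. All reads from 1 side of 1 cut site start at the same base, and such a group is called a read stack here. Its depth is the largest number of reads at any of its CGs within 50 bases of the cut. The windows of the 10 genes held 99 read stacks of 414356. The DBA male had the fewest CGs at 10 or more reads, 527351, and the B6 female the most, 1227747. Reads reached 100 bases from the cut in the B6 female, the DBA female and the BXD male, 76 in the B6 and DBA males and 50 in the other F1 mice, so that parents of the same sex matched. Over the autosomes, 84.0% of the sorted reads of the B6 male were tagged B6, against 99.7% in the B6 female (a tagged read is one that the authors sorted to B6 or DBA by a SNP in it), so that library went against its label in part of the genome. In the windows of the 10 genes all 501 tagged reads of the B6 male were tagged B6. In the same windows 103 of 107 tagged reads of the DBA male were tagged DBA. The male shares over the whole series given below include the parts where the B6 male library went against its label. How far those parts moved the shares was not tested.

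At some stacks of these genes DBA reads were absent, which is given as a description, since neither a depth nor a level differed between the strains at an adjusted p below 0.05 in the main tests. At several stacks both B6 parents and all 4 F1 mice had reads and both DBA parents had none. The sequences of 5 stacks that had the most B6 reads in their gene with at most 1 read in each DBA parent, like the other stacks named one by one here chosen after their counts were seen, are given with 2 stacks that were read in DBA mice. Each runs 5′ to 3′ from the MspI cut in the mm9 reference, which is a B6 genome, before bisulfite conversion, with CGs in capitals.

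H2-K1, chr17:34137129-34137178, plus strand, over the end of an exon and an intron: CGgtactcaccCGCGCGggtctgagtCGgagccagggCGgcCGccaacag

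H2-K1, other end of the same fragment, chr17:34137294-34137343, minus strand, upstream of the gene: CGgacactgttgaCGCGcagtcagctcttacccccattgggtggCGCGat

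H2-D1, chr17:35400492-35400541, plus strand, coding exon: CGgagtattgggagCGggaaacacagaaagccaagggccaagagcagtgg

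H2-Ab1, chr17:34400359-34400408, plus strand, intron: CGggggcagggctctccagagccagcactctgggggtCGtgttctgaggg

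H2-Eb1, chr17:34451228-34451277, plus strand, coding exon: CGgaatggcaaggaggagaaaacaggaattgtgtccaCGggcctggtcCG

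Tap2, chr17:34352338-34352387, plus strand, coding exon: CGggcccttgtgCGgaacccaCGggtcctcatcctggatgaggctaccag

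Tap1, chr17:34324850-34324899, minus strand, coding exon and read in all mice: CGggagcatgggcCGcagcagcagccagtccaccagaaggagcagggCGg

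H2-K1 (chr17:34132962-34137278, minus strand) had 8 stacks. At the H2-K1 stack on the plus strand given above, the B6 female had 96 reads, the B6 male 57, both DBA mice 0, the BXD female 29, the BXD male 20, the DXB female 11 and the DXB male 12. In these raw counts the groups did not overlap, with B6 mice highest, F1 mice between and DBA mice at 0. A count of 0 allows up to 3 reads, and how many stacks of the whole series show this order was not counted. The other end of this fragment of 215 bases kept reads in DBA, with 56 in the B6 female, 75 in the B6 male, 30 in the DBA female but only 3 in the DBA male. There the BXD female had 25 reads, the BXD male 13, the DXB female 19 and the DXB male 26. All 4 were below both B6 mice and the DBA female, so low F1 depth was not particular to the end without DBA reads. The 2 ends of 1 fragment differed in the DBA female, and in females only CGs at the upstream end could be compared between the strains. In females, 18 of 51 H2-K1 CGs with 10 reads in the B6 parent had none in the DBA parent, or 35.3%, against 6.83% over the whole series. In males the same count was 11 of 35, or 31.4%, against 20.3%. No H2-K1 CG had 10 reads in all 4 parents.

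H2-D1 (chr17:35399675-35404444, plus strand) had 12 stacks. At the coding stack given above, the B6 female had 180 reads, the B6 male 222, the DBA female 0, the DBA male 1, and the F1 mice 47, 127, 45 and 47 in the order BXD female, BXD male, DXB female and DXB male. The opposite end of that fragment, in an intron, had 119 and 142 reads in the B6 female and male, 1 and 0 in the DBA female and male, and between 18 and 90 in F1 mice. Nearer the start, a stack in an untranslated part of an exon turned the other way, with 17 and 12 reads in the B6 female and male, 19 and 173 in the DBA female and male, and 11 to 25 in F1 mice. That excess was in the DBA male alone. Over the gene, 14 of 100 CGs in females and 10 of 45 in males had 10 reads in B6 and none in DBA. These are shares of 14.0% and 22.2%, against 6.83% and 20.3% over the whole series, so the males were near the series.

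The class II genes had few DBA reads. H2-Ab1 (chr17:34400154-34406363, plus strand), the beta chain of the class II molecule I-A, had 10 stacks, and the highest depth in either DBA mouse was 3 reads. At its intron stack given above, just downstream of the start, the B6 female had 194 reads, the B6 male 176, both DBA mice 0, the BXD female 62, the BXD male 121, the DXB female 44 and the DXB male 53. The minus end of that fragment had 115 and 120 reads in B6 mice, 0 in both DBA mice and 30 to 71 in F1 mice. All 22 CGs with 10 reads in the B6 female had none in the DBA female, as did 6 of 7 in males, the exception having 1 read. Over the whole series such CGs were 6.83% in females and 20.3% in males.

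H2-Eb1 (chr17:34442828-34453144, plus strand), the beta chain of the class II molecule I-E, had 2 stacks, the ends of a fragment of 207 bases. The coding end had 138 and 118 reads in the B6 female and male, 0 in both DBA mice, and 98, 103, 73 and 69 in the BXD female, BXD male, DXB female and DXB male. The intron end had 57 and 42 reads in B6 mice, 0 in both DBA mice and 17 to 54 in F1 mice. All 9 CGs in females and all 8 in males with 10 reads in B6 had none in DBA.

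H2-Aa (chr17:34406276-34424772, minus strand), the alpha chain of I-A, had 10 stacks, 8 of them shared with the window of H2-Ab1. Of the 2 of its own, both upstream of the gene and the ends of 1 fragment of 150 bases, the plus end had 58 and 11 reads in the B6 female and male, 22 and 5 in the DBA female and male, and 21 to 194 in F1 mice. The minus end had 66 and 19 reads in B6 mice, 0 in both DBA mice and 11 to 76 in F1 mice. In females 18 of 19 H2-Aa CGs had 10 reads in B6 and none in DBA, and in males 2 of 4, the highest depth in DBA at any of its stacks being 22.

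**Figure D1:**
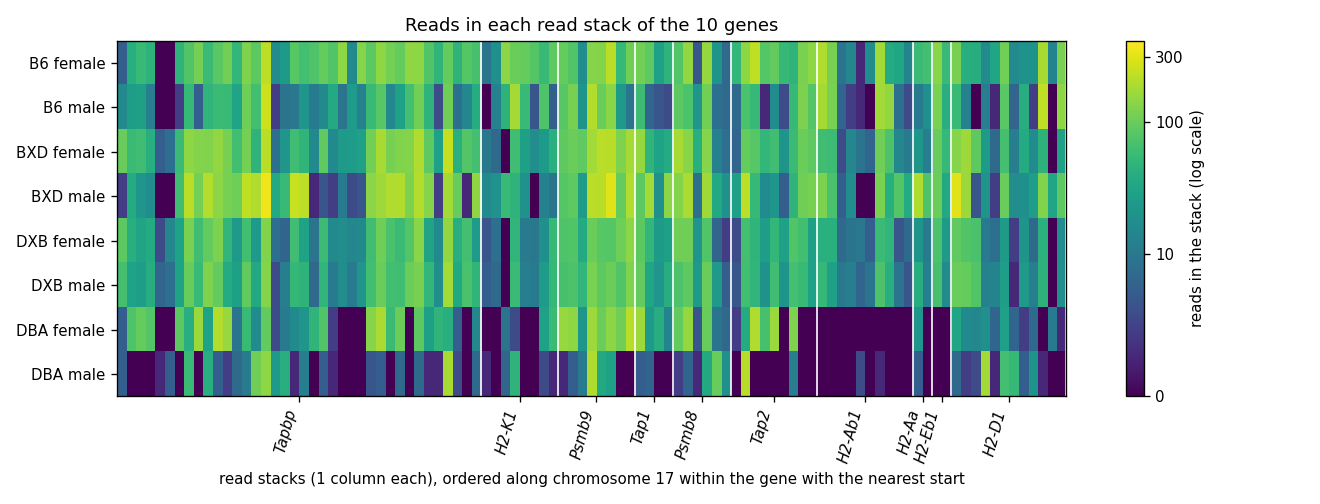
Reads in each of the 99 read stacks (columns, ordered along chromosome 17 within the gene whose start is nearest) in each of the 8 mice (rows), on a log color scale. Neither DBA mouse exceeds 3 reads in any column of H2-Ab1 and H2-Eb1, while at the Tap1 stack given above all 8 mice hold between 103 and 216 reads.

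The transport and loading genes were split. Tap2 (chr17:34340472-34353266, plus strand) had 9 stacks, and a fragment of 180 bases near its 3′ end had no DBA read at either end. Its coding end had 120 and 122 reads in the B6 female and male, 0 in both DBA mice, and 103, 108, 64 and 56 in the BXD female, BXD male, DXB female and DXB male. Its other end, in an intron, had 144 and 80 reads in B6 mice, 0 in both DBA mice and 29 to 116 in F1 mice. Within Tap2 another fragment, of 258 bases, had 55 reads at the plus end and 48 at the minus end in the B6 female, against 0 and 124 in the DBA female. For Tap2, 11 of 24 CGs in females and 9 of 13 in males had 10 reads in B6 and none in DBA, or 45.8% and 69.2%. The shares over the whole series were 6.83% and 20.3%.

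Tap1 (chr17:34324498-34334170, plus strand) kept its reads. At the stack given above, in a coding exon, the reads were 134 and 201 in the B6 female and male, 164 and 194 in the DBA female and male, and 172, 216, 103 and 118 in the BXD female, BXD male, DXB female and DXB male. The B6 and DBA values overlapped. Only 1 of 65 Tap1 CGs in females (1.54%) and 2 of 51 in males (3.92%) had 10 reads in B6 and none in DBA, below the shares over the whole series.

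Tapbp (chr17:34052844-34066235, plus strand) had the most stacks, 38, but 12 of them lie in Zbtb22 and Daxx and 18 in Rgl2, the neighbors within its window. All 4 stacks of the window with 10 reads in both B6 mice and none in either DBA mouse lie in Rgl2. At the deepest of them the B6 female had 146 reads, the B6 male 65, both DBA mice 0, and the F1 mice 132, 122, 79 and 103 in the order BXD female, BXD male, DXB female and DXB male, while the plus end of the same fragment had 59 reads in the DBA female. No stack within Tapbp itself was of this kind. For the whole window 14 of 170 CGs in females (8.24%) and 43 of 105 in males (41.0%) had 10 reads in B6 and none in DBA. The shares over the whole series were 6.83% and 20.3%, so the females were near the series.

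The immunoproteasome genes kept most of their reads. Psmb9 (chr17:34318932-34324709, minus strand), which starts beside Tap1 on the other strand, had 1 of 46 CGs without a DBA read in females and 2 of 37 in males, 2.17% and 5.41%. Psmb8 (chr17:34334666-34338399, plus strand) had 3 of 34 and 2 of 20, 8.82% and 10%. The shares over the whole series were 6.83% in females and 20.3% in males, so Psmb8 was slightly above the series in females. At the stack just upstream of Psmb8 with the most reads, the B6 female and male had 153 and 111, the DBA female and male 98 and 37, and the F1 mice 78 to 168.

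**Figure D2:**
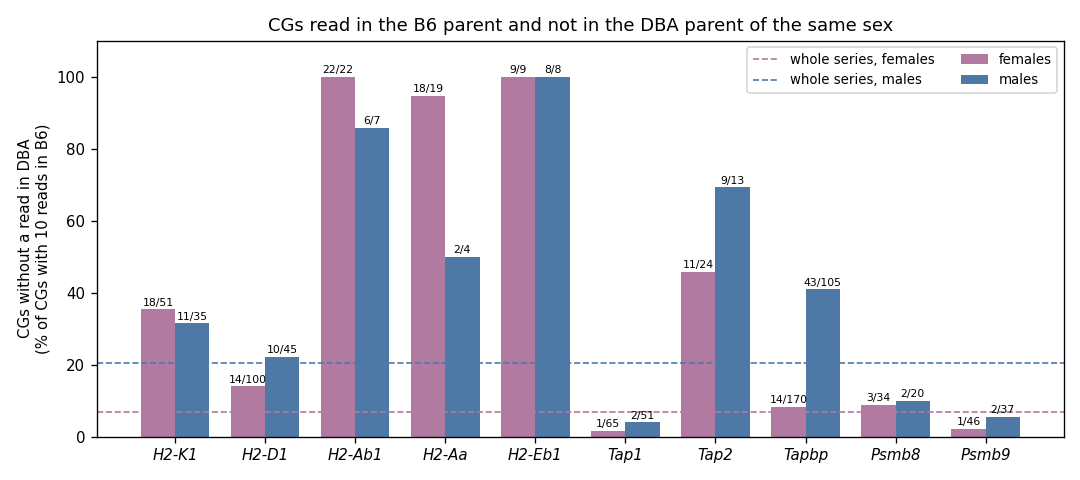
Share of CGs with no read in the DBA parent among those with at least 10 reads in the B6 parent of the same sex (bars, percent), for each gene, with the counts above the bars and the share over the whole series as dashed lines (6.83% in females, 20.3% in males). H2-Eb1 is at 100% in both sexes and H2-Ab1 in females, while Tap1 and Psmb9 lie below both lines.

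Over the 10 genes, 90 of 445 CGs in females (20.2%) and 90 of 268 in males (33.6%) had 10 reads in the B6 parent and none in the DBA parent. The reverse, 10 reads in DBA and none in B6, was found at 0 of 249 CGs in females and 0 of 133 in males, against 0.0184% and 2.58% over the whole series, and over both sexes at 0 of 85, against 0.00061%. For CGs with 10 reads in both B6 mice and none in both DBA mice, a count added after the data were seen, the share was 49 of 257 (19.1%), against 3.92% over the whole series, 4.41% over the rest of chromosome 17 and 6.17% over the rest of the span from Tapbp to H2-D1. By read stacks it was 14 of 65 (21.5%) against 4.58%, with 23 of 91 in females against 7.64% and 23 of 67 in males against 24.2%. These shares carry no test, as neighboring CGs share reads and each strain has 1 mouse of each sex.

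In the windows of the 10 genes, the share without DBA reads in males was higher on long fragments. Whether the same holds over the whole series was not tested. Of the stacks with 10 reads in the B6 male, 13 of 27 on fragments of 200 bases or more were at 0 in the DBA male, against 10 of 40 on shorter ones, whereas in females the counts were 10 of 39 and 13 of 52. The 14 stacks without a DBA read in either sex came from fragments of 117 to 266 bases (median 187), like the 51 other stacks with 10 reads in both B6 mice (123 to 271, median 187), and the median GC content of the first 50 bases was 60.0% in both. Of fragments with 10 reads at both ends in the B6 female, 28 had reads at both ends in the DBA female, 8 at only 1 end and 6 at neither. The authors kept only reads that mapped to a single position of the B6 reference, and the part of mapping in the absence of DBA reads was not tested.

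No read of the 14 stacks carried a tag in any mouse, while 6 of the 51 others had tagged reads. In the whole series, 62 of 9833 stacks without DBA reads (0.631%) and 12721 of 205007 others (6.21%) had tagged reads. The authors called the SNPs behind the tags from the bisulfite reads themselves, and a stack without DBA reads in the parents offers little for such a call. The lack of tags was thus largely set by how the stacks were chosen, and no conclusion is drawn from it. Depths were next scaled by the summed stack depth of each library and by edgeR's TMM normalization factor, which ran from 0.83 to 1.18 over the mice. In the F1 mice the 14 stacks then had a median depth of 44.7% of that in B6 mice (quartiles 29.3% and 47.1%), against 80.5% at the 16 stacks of the windows with 10 reads in all 4 parents. Over the whole series the medians were 48.7% at 9814 such stacks and 71.7% at 82276. The sets were chosen on the depth in the parents, which is also in the ratio, so the gap between them is a description. Without a tag, the chromosome these F1 reads came from cannot be told apart.

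Depth was tested over all stacks with the number of B6 chromosomes and sex as terms. By edgeR's quasi-likelihood test, 0 of the 94 stacks that passed the filter were called at an adjusted p below 0.05, as were 0.0% of 387493 stacks in all. At an unadjusted p below 0.05 there were 19, 18 of them with a positive slope, against 3.47% of all stacks. The slope was above 0 at 68 of the 94 stacks, against 63.5% of all stacks. The median log2 slope per B6 chromosome was 0.42 over the 94 stacks and 0.20 over all stacks, and with the size factors of DESeq2 these medians were 0.27 and 0.05. On leaving out 1 mouse the median over the stacks of the 10 genes ran from 0.24 (without the DBA male) to 0.84 (without the B6 female). The median over all stacks moved too, to -0.03 and 0.43 without the same mice. By DESeq2, 12 of 81 stacks with an adjusted p were called, all higher with B6 chromosomes, against 2.16% over all stacks. Most of them were the 2 ends of a shared fragment, as at H2-Eb1, and such ends are not independent. Of these 12, 9 were at 0 in both DBA mice, and all of H2-Eb1's stacks and the H2-K1, H2-D1, H2-Ab1 and Tap2 stacks printed above, apart from the kept end of H2-K1, were among them. The largest slope was at an H2-Ab1 and H2-Aa stack with 39 and 152 reads in the B6 female and male, 3.65 ± 0.92 (SE), with a DESeq2 adjusted p of 0.00973. A fitted slope of a stack at 0 in DBA depends on the model and is no bound.

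Sorted reads in the F1 mice were uneven at H2-K1. Of its tagged reads, 66 of 87 were tagged B6 in the BXD female (75.9%, 95% Wilson interval 65.9% to 83.6%), 50 of 60 in the BXD male (83.3%, 72.0% to 90.7%), 55 of 68 in the DXB female (80.9%, 70.0% to 88.5%) and 73 of 84 in the DXB male (86.9%, 78.1% to 92.5%). Every F1 mouse lay above its own share over the autosomes, which ran from 52.1% to 53.4%. The mean excess was 29.3 ± 4.45 percentage points (SD, n = 4), with an exact sign-flip permutation p of 0.125, the smallest that 4 mice allow, and 0.3125 after adjustment over 5 such comparisons. These reads came from 2 stacks, and at the one in a coding exon the BXD female had 51 B6 and 11 DBA reads, the BXD male 38 and 10, the DXB female 46 and 4 and the DXB male 55 and 4. At the other, upstream of the gene, the counts in the same order were 15 and 10, 12 and 0, 9 and 9, and 18 and 7, so that the DXB female showed no excess there. In the parents the coding stack had 103 and 178 reads in the B6 female and male, and 3 and 48 in the DBA female and male. DBA reads were thus also fewer there in the parents. The intervals cover counting error only.

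Tap2 lay on the other side of the autosomes. Its tagged reads, all from the end of the fragment of 258 bases that kept DBA reads, were 27 B6 and 32 DBA in the BXD female (45.8% B6), 6 and 42 in the BXD male (12.5%), 30 and 47 in the DXB female (39.0%) and 25 and 40 in the DXB male (38.5%). All 4 lay below the autosomes, by 18.6 ± 15.3 points on average (SD, n = 4), with an exact permutation p of 0.125 and an adjusted p over the 5 comparisons of 0.3125, and the BXD male stood apart from the others. Over the 10 genes together the difference from the autosomes was 2.68 ± 5.91 points (SD, n = 4), above in 3 of 4 mice (exact permutation p = 0.5). The BXD male was the one below, at 47.8%, against 60.5%, 56.3% and 56.1% in the BXD female, DXB female and DXB male. Counted by tagged CG calls, in which a read counts once for each CG it covers, the shares were higher, 68.8%, 57.6%, 69.4% and 73.6% in the BXD female, BXD male, DXB female and DXB male, against 52.3% to 53.7% over the autosomes. At Tap1 the difference by reads was -4.10 ± 6.24 points, above in 1 of 4 (exact permutation p = 0.25). Psmb9 was near the autosomes, with B6 shares of 58.4%, 52.2%, 52.4% and 42.6% in the BXD female, BXD male, DXB female and DXB male. At H2-D1 only the BXD male had sorted reads, 14 tagged B6 and 13 DBA, and the class II genes had none in any mouse.

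**Figure D3:**
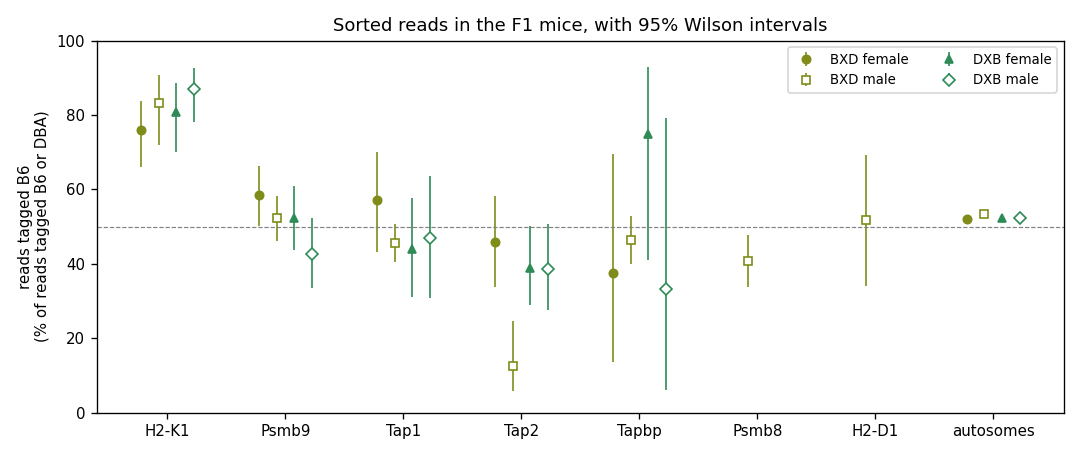
Share of sorted reads tagged B6 in each F1 mouse (points, percent, with 95% Wilson intervals that cover counting error only), by gene, with the autosomes at the right and a dashed line at 50%. All 4 mice lie between 75.9% and 86.9% at H2-K1, against 52.1% to 53.4% over the autosomes.

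Levels of methylation followed the position in the gene. In the 6 B6 and F1 mice, where all 10 genes can be described, 85 of 165 CGs of the windows were below 10% on average and 57 above 80%, shares of 51.5% and 34.5%, against 32.2% and 40.2% over the whole series. Within 1 kb of a start the mean level of 76 CGs was between 6.59% and 8.49% in these 6 mice, and over 1 kb away that of 89 CGs was between 61.0% and 64.2%. No mouse of one range reached the other. A start here is the annotated start of the gene, so CGs near other transcript starts, such as low CGs of Tapbp, count as over 1 kb away.

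The class I starts had low levels. Over the 20 CGs of H2-K1, all within 1 kb of the start, the mean level was 0.966% in the B6 female, 1.21% in the B6 male, 1.13% in the BXD female, 1.06% in the BXD male, 0.651% in the DXB female and 2.36% in the DXB male. At H2-D1 the 26 CGs within 1 kb of the start had means of 2.36%, 4.53%, 2.50%, 2.29%, 3.45% and 3.61% in the same order. A fragment more than 2 kb upstream of H2-D1 was methylated, with 98.7% and 97.3% at its plus end in the B6 female and male, 92.6% in the DBA female, and 91.2% to 94.4% in F1 mice.

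The class II genes were read at unlike distances from their starts, so their levels are given by position and not compared. The stack of H2-Ab1 near its start was at 0.515% in the B6 female, 2.84% in the B6 male and 0.826% to 3.23% in F1 mice. Further along the gene a stack that it shares with the window of H2-Aa was at 89.0% and 83.1% in B6 mice and 83.8% to 94.5% in F1 mice. The coding end of the H2-Eb1 fragment was at 95.4% and 92.7% in B6 mice and 92.5% to 96.3% in F1 mice, and its intron end at 53.1% and 45.8% in B6 mice and 40.9% to 62.1% in F1 mice. Neither gene has a level in DBA mice. At H2-Aa the only DBA level was the plus end of its upstream fragment in the DBA female, 86.4%, against 72.4% and 81.8% in B6 mice.

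The region upstream of Psmb9 and inside the first part of Tap1 was low in all 8 mice. Over the 15 CGs there, within 1 kb of both starts, the mean level was 2.01% and 6.35% in the B6 female and male, 1.17% and 7.83% in the DBA female and male, and 2.05%, 1.18%, 2.77% and 2.68% in the BXD female, BXD male, DXB female and DXB male. The parent males were the highest, and the F1 males were not. The 6 CGs within 1 kb of the start of Psmb8 that all 8 mice share were at 2.98% and 1.67% in B6 mice, 0.510% and 2.73% in DBA mice and 1.01% to 2.87% in F1 mice. Further upstream but still within 1 kb, at the 3′ end of Tap1, levels were high. Over the 10 CGs within 1 kb read in the 6 B6 and F1 mice the mean was 38.5% to 39.9%. That mean pools the 6 low CGs with the high ones and describes neither. In the Tap2 intron the stack nearest the start that all 8 mice share was at 4.53% and 17.6% in B6 mice, 10.3% and 10.3% in DBA mice and 6.25% to 9.79% in F1 mice, whereas the minus end of its fragment of 258 bases was at 96.9% and 92.7%, 96.0% and 91.7%, and 93.8% to 95.8%. In Tapbp the low CGs lay 3953 to 4472 bases after the annotated gene start, with stack levels of 0% to 8.92% over the mice, and an intron stack further on was at 91.6% and 90.9% in B6 mice, 84.1% and 83.3% in DBA mice and 92.7% to 96.8% in F1 mice.

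**Figure D4:**
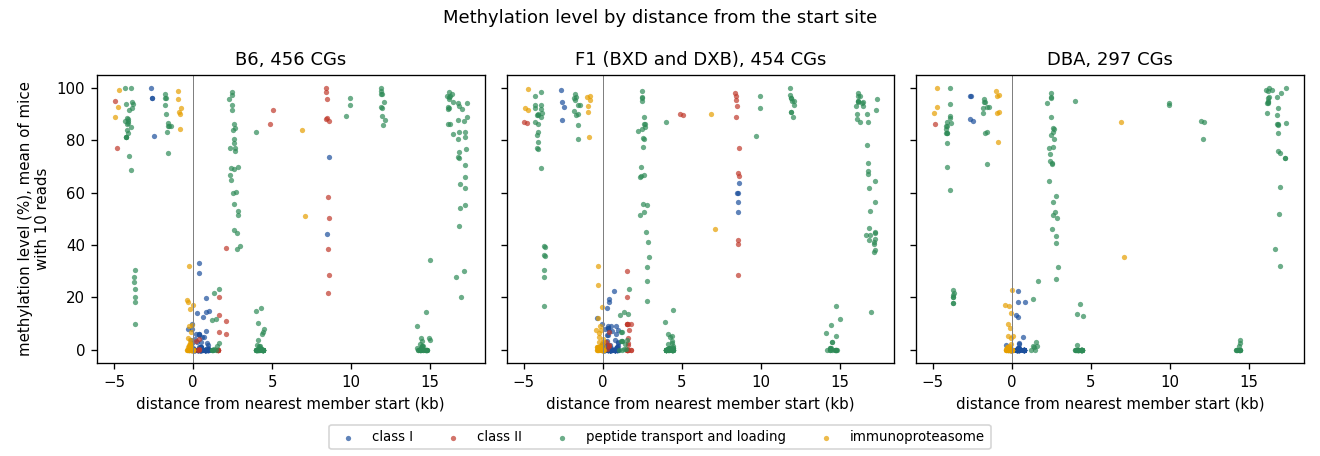
Methylation level (percent, mean of the mice of a group with at least 10 reads) of each CG against its distance from the nearest start of the 10 genes (kb, positive downstream), for B6, F1 and DBA mice, colored by role. Levels near the starts are mostly low in all panels, and the class II points (red) downstream of the start are missing in DBA.

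Where both strains had reads, no CG of the 10 genes differed by the study's rule for parents, in which each level lies outside the exact 95% binomial interval of the other and the levels differ by over 50 percentage points. In females 0 of 249 CGs were called, against 0.549% of 887174 CGs in all, and in males 0 of 91, against 0.423% of 323010. At 5 or more reads 1 of 171 was called in males, against 0.682%, a CG in Rgl2 with 5 reads in the DBA male. Differences of B6 minus DBA ran from -22.7 to 20.1 points in females and from -16.9 to 16.1 in males. In females 228 of the 249 differed by under 10 points, against 84.8% of all CGs, and 2 by over 20 points, against 4.37%. The median absolute difference was 1.29 points, against 2.50 over all CGs. These comparisons with all CGs were not matched for level, and CGs near 0% can differ little. Of the 79 CGs of the windows with 10 reads in all 4 parents, 50 lay within 1 kb of a start, with a mean level of 2.53%. The mean over the 79 was 18.9%, against 39.5% over the whole series. None of the CGs compared by the rule belongs to H2-Ab1 or H2-Eb1, so the rule could not be applied to those genes.

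**Figure D5:**
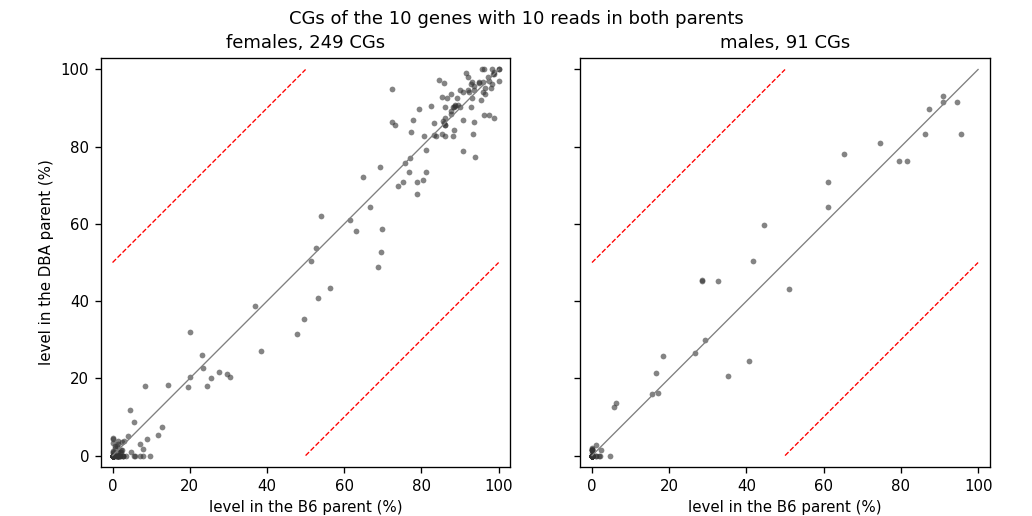
Level in the DBA parent against level in the B6 parent of the same sex (percent) for CGs of the 10 genes with at least 10 reads in both, 249 in females and 91 in males, with the line of equal levels (grey) and a difference of 50 percentage points (dashed red). All points lie between the dashed lines, the differences running from -22.7 to 20.1 points in females and from -16.9 to 16.1 in males.

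Over the 8 mice, 0 of 54 CGs changed with the number of B6 chromosomes by limma at an adjusted p below 0.05, against 0.168% of 176951 CGs. At an unadjusted p below 0.05 there was 1 of the 54, against 5.9% of all. Slopes ran from -5.81 to 7.17 percentage points per B6 chromosome, with a median of 0.00 and a median SE of 0.847, and 50 of the 54 were under 5 points in size. On leaving out 1 mouse, slopes reached -14.9 (without the B6 female) and 10.7 points (without the B6 male). The 54 CGs come from H2-D1, Tap1, Tap2, Tapbp, Psmb8 and Psmb9, and none from H2-K1, H2-Ab1, H2-Aa or H2-Eb1.

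The CG with the largest difference between mean B6 and mean DBA level of Tapbp, in an intron at position 34064935, was also the one with the largest slope. It was at 93.8% and 95.5% in the B6 female and male, 77.3% and 83.3% in the DBA female and male, and 93.9%, 90.9%, 100% and 89.6% in the BXD female, BXD male, DXB female and DXB male. The DBA mice were below the other 6, on 22 and 12 reads, with a slope of 7.17 ± 2.54 points (SE) and a limma adjusted p of 0.782. Without the DBA female the slope was 3.77. For H2-D1 the CG at position 35400048, in an untranslated exon, was at 25.5% and 40.7% in B6 mice, 20% and 24.6% in DBA mice and 13.9% to 25.9% in F1 mice, and 3 of the 4 F1 mice were below both DBA mice (slope 5.38 ± 3.71, limma adjusted p = 0.918). Without the B6 male that slope was 0.865 and without the DBA female 8.16.

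For Tap1 and Psmb9 the CG with the largest difference was the same one, at position 34324708 in an untranslated exon next to both starts. It was at 5.56% and 28.6% in the B6 female and male, 0% and 45.5% in the DBA female and male and 2.17% to 7.84% in F1 mice, on 11 to 92 reads, with a slope of -2.83 ± 6.66 points and a limma adjusted p of 1. Both parent males were high and both parent females low. The Psmb8 window's CG at position 34341799, which lies in a Tap2 intron, was at 8.33% and 35.2% in B6 mice, 17.9% and 20.6% in DBA mice and 12.5% to 18.6% in F1 mice (slope 1.26 ± 4.12, limma adjusted p = 1). For Tap2, position 34350401 was at 97.9% and 94.5% in B6 mice, 95.2% and 91.7% in DBA mice and 95.4% to 100% in F1 mice (slope 1.41 ± 1.20, limma adjusted p = 0.959), and the slope was 0.247 without the DBA male and 2.54 without the B6 male. None of these slopes passed the test.

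By gene, mean levels of B6 and DBA mice over CGs with 10 reads in all 8 differed by 1.29 points for H2-D1, -0.0305 for Tap1, 0.887 for Tap2, 0.391 for Tapbp, 0.726 for Psmb8 and -0.325 for Psmb9. The spread between the 2 mice of a strain was 1.81, 3.02, 2.48, 4.16, 1.42 and 3.97 points (pooled SD, n = 2 each), which includes the difference between the sexes since the 2 mice are a female and a male. Within both sexes B6 was the higher for H2-D1, at 4.44% against 2.81% in females and 6.63% against 5.70% in males, and for the Psmb8 window, at 3.37% against 2.95% and 5.65% against 4.62%. Over the 6 CGs within 1 kb of the Psmb8 start, however, the males were the other way, at 1.67% in B6 and 2.73% in DBA. For the other 4 genes the order of the strains was not the same in females and males. At 20 reads in all 8 mice the H2-D1 difference was 2.20 points, above its spread of 1.75, but as a mean over only 5 CGs. The CG at position 35400048, where B6 minus DBA was 10.8 points, is 1 of them and also 1 of the 9 at 10 reads. Over the 16 H2-D1 CGs with 10 reads in all 4 parents the median difference was 0.00. At 20 reads the differences of Tap1, Tapbp and Psmb9 changed sign, to 0.359, -0.445 and 0.0994 points. At 10 reads the exact permutation p was 0.667 or 1, and 2 against 2 mice cannot go below 0.333; this test has no term for sex.

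Alleles could be compared in F1 mice at 5 CGs, of Psmb9, Tap1 and Tap2, with at least 10 reads of each allele in 3 or more mice. By limma 0 of 5 were called at an adjusted p below 0.05, against 7.9% of 13689 CGs, and 0 at an unadjusted p below 0.05, against 18.0%. The B6 minus DBA differences ran from -10.6 to -3.30 percentage points, and without the DXB female, which left 3 CGs, from -11.4 to 0.382. With the parents' chromosomes added and no mouse block, the median over 13 CGs was 0.465. The largest was at position 34322924, in a noncoding exon of Psmb9, where the B6 and DBA alleles were at 89.3% and 95.2% in the BXD female, 87.4% and 88.1% in the BXD male, 77.3% and 85.7% in the DXB female and 66.7% and 94.1% in the DXB male. The DBA allele was the higher in 4 of 4 mice, by 10.6 ± 5.34 points (SE), with a limma adjusted p of 0.461, and the DXB male had the widest gap. Without that mouse its difference was -5.04 points, and with the parents' chromosomes added and no mouse block it was -7.63 points. At the same CG the B6 female was at 75.3% and the DBA female at 70.8%, the opposite order.

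Between the sexes, 0 of 54 CGs were called by limma, as were 0.0% of all CGs, and 3 had an unadjusted p below 0.05, against 4.95% of all. Without the BXD male there were 9 of 54, and 12536 of 177132 in the whole series. No CG in the series was called for a strain effect that differed between the sexes, again with 0 of 54 in the windows.

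The other genes of the pathway, 22 of them such as B2m, the light chain of class I, the class I regulator Nlrc5 and the class II regulator Ciita, had CGs without DBA reads only in genes of the H2 complex. Of their 455 CGs with 10 reads in both B6 mice, 4 had none in both DBA mice (0.879%, against 3.92% in the series), 3 of 5 in H2-DMb1 and 1 of 14 in H2-DMa, which encode chains of the molecule that loads class II peptides. By the rule for parents 5 of 708 CG entries in females and 0 of 259 in males were called, against 0.549% and 0.423% of all CGs, where 1 CG counts for both H2-DMa and H2-DMb2. That CG, at position 34276826, was at 8.33% in the B6 female and 10% in the B6 male, 60.6% and 32.9% in the DBA female and male and 15.4% to 24.8% in F1 mice. Ciita had 2 called CGs and Rfxap, a subunit of the factor that binds class II promoters, had 1, all higher in the B6 female than in the DBA female. In males the Ciita CG at position 10524034 was at 70.0% in B6 and 30.4% in DBA, and the one at 10532656, with 10 reads in the DBA female, at 55.2% and 52.4%. The Rfxap CG had 1 read in the DBA male. Of these called CGs only the one at 10524034 lies within its gene, and the others lie beside the genes, within 5 kb.

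Hepatocyte markers were covered thinly. Of 6 hepatocyte genes only Apob and Hnf4a had CGs with reads within 1 kb of the start. Over the mice the mean level, each over the CGs that mouse covered, was 23.6% to 39.9% at Apob and 20.7% to 48.5% at Hnf4a, with no CG at 10 reads in the DBA male for either gene. The part of cell mixture in the levels above was not tested.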

How the data were processed

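Reduced representation bisulfite sequencing was done on liver DNA of 8 mice, 1 female and 1 male of B6, DBA, BXD and DXB. The authors aligned reads to mm9 with BS Seeker, kept those with a unique position, sorted reads by SNPs into B6, DBA and untagged classes, and deposited read counts, unmethylated and methylated, for each cytosine and class. The deposited fraction column was not used, nor were the authors' tables of parent, allele and sex comparisons, which hold their test results. Counts were summed over classes, and a level is methylated reads over all reads, at 10 or more reads. The 10 genes and the lists were chosen with earlier results of these data known.

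Strain was tested with limma (3.58.1, trended and robust) as a slope per B6 chromosome with sex as a covariate, on CGs with 10 reads in all 8 mice. Parents were compared within sex by exact 95% binomial intervals and a difference over 50 percentage points, alleles by limma paired within F1 mice, and stack depth by edgeR (4.0.16) with DESeq2 (1.42.0) as an alternative. P-values were adjusted by Benjamini-Hochberg over all features. R 4.3.3 and Python 3.11.15 were used. Each strain has 1 mouse of each sex, so p-values measure the spread between these mice. Genes were placed with GENCODE M1. All 10 genes are named, with the CG of largest difference between mean B6 and mean DBA level for each gene that had one and any called CG. Of the 22 pathway genes those with a call are named. The scripts were tested on 20000 simulated features, where the edgeR depth test recovered 15 of 100 stacks changed by 1 log2 unit per B6 chromosome and 96 of 100 changed by 2. The limma test recovered 64 of 100 CGs changed by 25 percentage points per B6 chromosome and 98 of 100 changed by 45, with 14 false calls. The stacks were simulated from those with 10 reads in most mice, the changed CGs from middle levels, each with 1 fixed spread for all. The counts therefore do not tell how many real stacks or CGs the tests would find. Alternatives were other read minimums, a log2 ratio scale, other tools and leaving out each mouse. Read length as a covariate and the count over both parents were added after the data were seen. The result for immune cell markers is not reported here.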

Additional observations from a re-analysis of the deposited data

How the results depend on the processing

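Most main results are counts of 0 calls, which can show little of their stability. Of these counts, those that moved were the depth test, with 12 stacks called by DESeq2 against 0 by edgeR, and the male parents, with 1 of 171 CGs called at 5 or more reads against 0 at 10. That CG, in Rgl2 in the Tapbp window, was at 100% on 5 reads in the DBA male, 6.25% on 16 in the B6 male and 3.85% on 78 in the DBA female. Slopes of named CGs rest on the parents, so leaving out an F1 mouse, the read minimum or the reach of the reads could not change them. With the other scale or a parent left out, 4 slopes turned sign, none of them called. At position 34324708 (Tap1, Psmb9) the slope was 0.11 on the log2 ratio scale and, with 1 mouse left out, ran from -7.82 (without the B6 male) to 7.77 points (without the DBA male). At position 34341799 (Psmb8 window) it was -0.060 on the log2 ratio scale and, with 1 mouse left out, ran from -5.47 (without the B6 male) to 4.98 points (without the B6 female). The differences in mean level of Tap1, Tapbp and Psmb9 also changed sign at 20 reads, as given above. The causes were not tested.

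Over the whole series, the 298 CGs called for strain became 454 on the log2 scale, 467 at 5 reads, 155 at 20 reads, 174 without CGs at 0% in a parent strain, 10 with the 4 parents alone and 107 (without the DBA female) to 572 (without the DBA male) on leaving out 1 mouse. CGs called for sex went from 0 to 455 on the log2 scale and from 0 to 83 on leaving out 1 mouse. Calls between alleles went from 1081 to 1946 with 12 chromosome sets and no mouse block, and depth calls from 0 to 6733 by DESeq2. With fewer CGs tested, allele calls fell on leaving out any F1 mouse. Calls between parents went from 4868 to 7485 in females and from 1365 to 3336 in males at 5 reads. They fell to 2414 and 877 with reads without a SNP alone, and rose to 14356 and 5010 at a difference above 30 points. No paired analysis was possible beyond the pairing by sex because replicate numbers stand for sex. Sex is a term of the strain and depth fits but not of the differences in mean level by gene, and alleles were compared within each F1 mouse. H2-K1, H2-Ab1, H2-Aa and H2-Eb1 had no CG with 10 reads in all 4 parents, so their levels could not be compared over all of them.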

Other observations

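Cytosines outside CGs in the windows, 1335 with 10 reads in both female parents, had mean levels of 0.526% in the B6 female and 0.637% in the DBA female. The highest levels were 16.8% and 29.9%.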
